A study of Rattus norvegicus with 26 samples.

Results

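The genes described here encode succinate-CoA ligase and other enzymes of the tricarboxylic acid (TCA) cycle: Sucla2, Suclg1, Suclg2, Ogdh, Dlst, Idh3a, Cs, Mdh2 and Fh. A gene was taken by each probe set, the group of array probes read as a unit, that named it alone, and by the brightest such set where there were several. Of the 9 genes, 7 had one, out of 14506 genes with such a probe set on the array. Dlst shared its probe set with Afdn and Fh had none in the array annotation, so neither is described further. Sucla2 was chosen by its p value between the high and low diets, among the smallest in an earlier look at these arrays, and the others were added as its partners in the cycle. All 7 passed the intensity filter, a mean at or above 6.94 log2, which left 8485 genes for testing.

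Hippocampal RNA came from 26 male F344 rats aged 18 months, with 1 array of the type Rat Gene 1.0 ST for each rat. All had eaten a purified AIN-93G diet that differed in vitamin D3, for 5 to 6 months: 8 rats got 100 IU per kg (low), 9 got 1000 IU per kg (control) and 9 got 10000 IU per kg (high). The rats were housed in pairs, and the codes in the array descriptions, read here as cage numbers, place them in 14 cages, each on 1 diet. The values are log2 probe set intensities made by the authors, and the number of arrays limits their precision. A probe set's brightness depends on its probes, so levels were compared between rats and not between genes.

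The TCA cycle runs in the mitochondrial matrix and oxidises acetyl-CoA, passing electrons to the respiratory chain. Succinate-CoA ligase turns succinyl-CoA into succinate and makes ATP or GTP directly, without the respiratory chain. Its alpha subunit, Suclg1, pairs with 1 of 2 beta subunits, Sucla2 in the ADP-using form or Suclg2 in the GDP-using form. The ADP-using form is prominent in brain, and in people the loss of SUCLA2 is known to cause an encephalomyopathy with depletion of mitochondrial DNA.

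The promoters of the 3 ligase genes are shown because the results below turn on Sucla2 beside its 2 partners. Each run covers 250 bases before and 50 after the RefSeq start site in build GRCr8, read along the gene. Capitals mark GGGCGG or its reverse complement, a site type bound by SP1.
Sucla2, chr15:55161644-55161943, + strand: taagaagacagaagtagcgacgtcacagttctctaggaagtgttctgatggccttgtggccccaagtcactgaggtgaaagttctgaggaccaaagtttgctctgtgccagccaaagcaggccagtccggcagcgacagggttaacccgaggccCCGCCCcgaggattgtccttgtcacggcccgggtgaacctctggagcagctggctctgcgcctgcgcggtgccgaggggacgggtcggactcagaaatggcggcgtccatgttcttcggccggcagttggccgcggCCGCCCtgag
Suclg1, chr4:106866079-106866378, + strand: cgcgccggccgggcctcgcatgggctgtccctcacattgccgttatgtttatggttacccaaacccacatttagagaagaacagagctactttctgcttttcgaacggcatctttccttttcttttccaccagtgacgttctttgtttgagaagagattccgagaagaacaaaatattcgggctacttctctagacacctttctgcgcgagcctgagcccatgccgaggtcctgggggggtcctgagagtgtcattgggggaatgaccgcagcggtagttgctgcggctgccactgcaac
Suclg2, chr4:129893888-129894187, - strand: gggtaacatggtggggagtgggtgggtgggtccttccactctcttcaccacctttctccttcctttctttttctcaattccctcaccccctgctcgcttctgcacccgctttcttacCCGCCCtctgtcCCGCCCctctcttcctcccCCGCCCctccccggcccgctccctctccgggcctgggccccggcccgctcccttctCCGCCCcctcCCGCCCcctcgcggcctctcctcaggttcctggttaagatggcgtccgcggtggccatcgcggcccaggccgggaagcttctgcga

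The SP1 letters occurred 2 times in the Sucla2 window and 5 times in that of Suclg2, and were not found in that of Suclg1. Both strands were read for each motif. Promoters were found in the RefSeq table for 8 of the 9 genes, all but Idh3a, and the SP1 letters lay in 7 of these 8, against 33.1% of 33469 promoters of the same length. The 8 windows held 53.0% to 68.0% G and C, above the median of 51.7% over all promoters, and the share was not compared at equal base content. The ETS letters CCGGAAG, which GABPA binds, lay in 2 of the 8 (Dlst and Mdh2), against 8.75% of all. No match was found in any of the 8 for AAGGTCA, a site of estrogen-related receptors, held by 4.61% of all promoters. A vitamin D element was searched as a pair of 6-base sites in the same direction with 3 bases between them, each made of A or G, then G, then G or T, then TCA. It was not found in the 8 windows, and 0.0986% of all promoters held it. These matches describe only the letters of a short window, and the elements searched for may overlap.

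Sucla2 (probe set 10781451) had its lowest group mean on the low diet and its highest on the high diet. It was chosen by the gap between those diets, so this order and the counts of rats below are description only. On the low diet its lowest, median and highest rats were at 11.07, 11.11 and 11.23 log2, on control at 11.09, 11.14 and 11.21, and on high at 11.16, 11.21 and 11.26. The low group averaged 11.12 ± 0.05 (SD, n = 8), the control group 11.15 ± 0.04 (SD, n = 9) and the high group 11.22 ± 0.04 (SD, n = 9). The groups overlapped, though all 9 high-diet rats lay above the mean of the low group and above the mean of the control group. Of the 9, 4 lay above every low-diet rat and 4 above every control rat. The highest low-diet value belonged to rat 2, and without that rat the difference between high and low was +0.11 instead of +0.095 log2.

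The difference of high minus low, +0.095 log2 (SE 0.024) or a ratio of 1.07, is the value that chose Sucla2 and is given without a test. By cage, the 5 high-diet cages had Sucla2 means between 11.19 and 11.26, and the 4 low-diet cages had means between 11.09 and 11.17. All 5 high-diet cages lay above all 4 low-diet cages, and 3 of them lay above all 5 control cages, which spanned 11.13 to 11.20. The choice of Sucla2 favours such a separation, and its share over all tested genes was not counted, so nothing is read from it. Cage mates differed in Sucla2 by 0.016 to 0.11 log2 on low, by 0.010 to 0.11 on control and by 0.0017 to 0.083 on high.

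**Figure D1:**
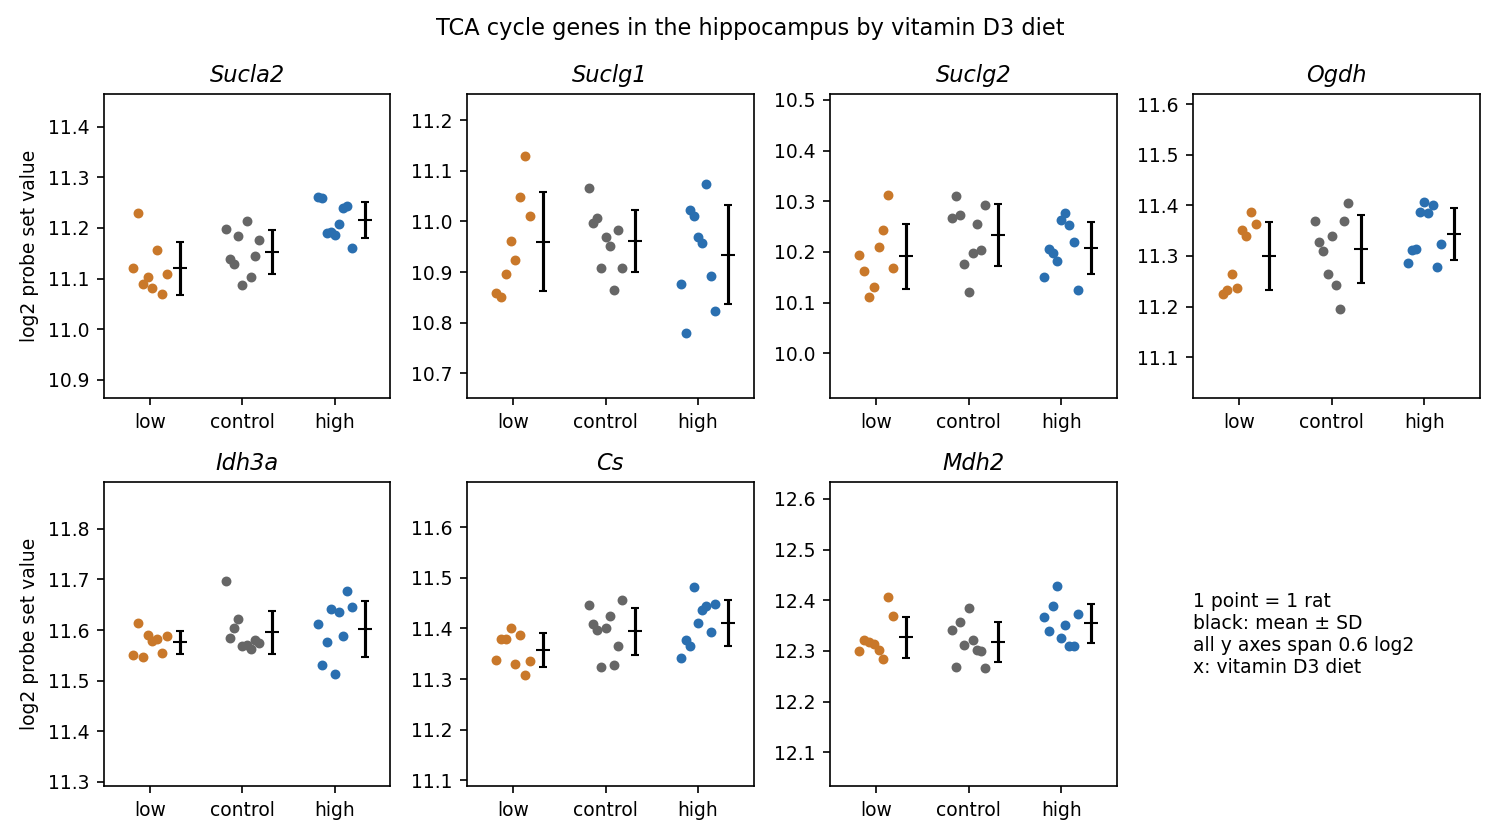
Log2 values of the 7 measured genes (y axes, each spanning 0.6 log2) by diet (x axis), with 1 point per rat and the mean ± SD in black. Sucla2 is the panel where all 9 high-diet rats lie above the control mean. In each of the other panels 2 or more high-diet rats lie below it. Sucla2 alone was chosen by its gap between high and low, which favours this, so the contrast between panels is description only. The share of all tested genes with such a separation was not counted.

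Between high and control, which share their high-diet rats with the contrast that chose Sucla2, Sucla2 was 1.04 times as high. The difference was +0.063 log2 with a 95% interval of +0.015 to +0.11. limma called 0 of the 7 genes at an adjusted p under 0.17, against 0% of the 8485 tested genes, and the smallest adjusted p of any gene was 0.921. The adjusted p of Sucla2 was 0.9997. At an unadjusted p under 0.05 in the limma fit across all genes stood Sucla2 alone of the 7, against 4.63% of all tested genes. Its limma p was 0.0115 (SE 0.023), and with cage as a random block it was 0.0184 (SE 0.025). The unmoderated test also called 0 genes.

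Its 2 partner subunits had lower means on high than on control. Suclg1, the alpha subunit (probe set 10856436), had its lowest, median and highest rats at 10.85, 10.94 and 11.13 on low, at 10.87, 10.97 and 11.07 on control and at 10.78, 10.96 and 11.07 on high. The high group thus spread widely, with 2 of its 9 rats below every control rat and 1 above all of them. The difference of high minus control was -0.027 log2 (95% interval -0.11 to +0.054) and that of low minus control -0.0013 (-0.085 to +0.082).

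Suclg2, the beta subunit of the GDP-using form (probe set 10864302), was at 10.11, 10.18 and 10.31 on low (lowest, median, highest), at 10.12, 10.26 and 10.31 on control and at 10.12, 10.21 and 10.28 on high. High minus control was -0.025 (-0.084 to +0.034) and low minus control -0.042 (-0.10 to +0.019), and neither high nor low was clear of control. For both partner genes all 3 diets overlapped and the intervals include 0.

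Ogdh encodes the first enzyme of the 2-oxoglutarate dehydrogenase complex, which makes the succinyl-CoA that the ligase uses (probe set 10774045). It was at 11.23, 11.30 and 11.39 on low, at 11.20, 11.33 and 11.40 on control and at 11.28, 11.32 and 11.41 on high. The 3 ranges nearly coincided, with high minus control at +0.030 (-0.031 to +0.091) and low minus control at -0.014 (-0.077 to +0.049). Idh3a, the catalytic subunit of NAD-dependent isocitrate dehydrogenase (probe set 10910071), was at 11.55, 11.58 and 11.61 on low, at 11.56, 11.58 and 11.70 on control and at 11.51, 11.61 and 11.68 on high. In Idh3a the high group had 2 of 9 rats under the whole control range and 5 over the control mean, with a difference of high minus control of +0.0066 (-0.041 to +0.054), and low minus control was -0.020 (-0.069 to +0.029).

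Cs, citrate synthase, opens the cycle by joining acetyl-CoA to oxaloacetate (probe set 10893127). It was at 11.31, 11.36 and 11.40 on low, at 11.32, 11.40 and 11.46 on control and at 11.34, 11.41 and 11.48 on high. Of the 8 low-diet rats 7 lay below the control mean. Low minus control was -0.037 (-0.086 to +0.011), against +0.017 (-0.030 to +0.063) for high minus control. A second Cs probe set (10902022) had a mean of 6.77, below the filter, and differed by -0.0027 (SE 0.025) between high and control and by -0.0048 (SE 0.026) between low and control.

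Mdh2, mitochondrial malate dehydrogenase, closes the cycle by remaking oxaloacetate (probe set 10761152). It was at 12.28, 12.32 and 12.41 on low, at 12.27, 12.31 and 12.39 on control and at 12.31, 12.35 and 12.43 on high. Of the 9 high-diet rats 7 lay above the control mean and 2 above every control rat. High minus control was +0.038 (-0.0069 to +0.083), and low minus control +0.0095 (-0.037 to +0.056).

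Between low and control, limma again called 0 of the 7 genes (0% of all tested genes), and every adjusted p of the 7 was 0.9997. This contrast holds no high-diet rats, but its low-diet rats are part of the contrast that chose Sucla2. The values of Sucla2 here, and its place in the counts, are therefore description only. At an unadjusted p under 0.05 stood 0 of the 7, against 2.27% of all genes. Sucla2 differed by -0.033 (-0.082 to +0.016), with 6 of 8 low-diet rats below the control mean and 2 below every control rat. In all, 6 of the 7 genes had a lower mean on low than on control, with a median difference of -0.020 log2, while 44.1% of all tested genes had a higher mean and their median was -0.0043.

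For high minus control, 5 of the 7 means were higher, with a median of +0.017, against 50.6% of all genes and a median of +0.00043. For high minus low, which chose Sucla2, 6 of the 7 were higher (55.2% of all genes), and 2 (Sucla2 and Cs) had an unadjusted p under 0.05 (7.22% of all genes), from which nothing is read. The high minus low differences of the other members were +0.054 for Cs, +0.044 for Ogdh, +0.028 for Mdh2, +0.027 for Idh3a, +0.017 for Suclg2 and -0.026 for Suclg1, which was at +0.016 with array quality weights. Comparisons of diets share rats, so these counts are not independent of each other.

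Cage mates were distinguished by a tail mark, and marked against unmarked rats gave a contrast within diets. limma called 0 of the 7 genes (0% of all), and 0 had an unadjusted p under 0.05 (5.32% of all). Of the 7, 2 had a higher mean in marked rats, against 33.8% of all tested genes. Sucla2 differed by -0.00093 (-0.041 to +0.039) between marked and unmarked rats. Cs had the widest such gap among the 7, -0.035 (-0.073 to +0.0019), about the size of its gap between low and control. With cage as a random block limma put Cs alone of the 7 at an unadjusted p under 0.05, against 7.14% of all tested genes. In that fit the adjusted p of Cs was 0.696. With the 24 rats of 12 full cages taken as pairs it put 0 of the 7 there, against 5.88% of all, and Cs was at -0.036 (SE 0.019).

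**Figure D2:**
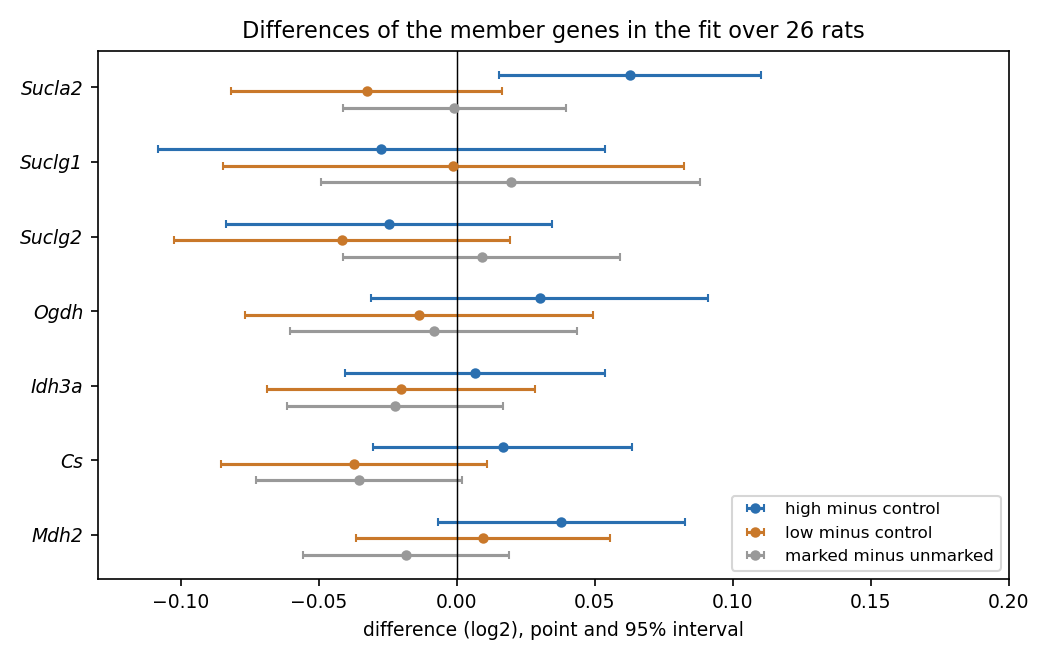
Differences in log2 (x axis) of the 7 genes (y axis) for high minus control, low minus control and marked minus unmarked rats, with points for estimates and lines for 95% intervals from limma. The interval of Sucla2 for high minus control, +0.015 to +0.11, is the one that excludes 0, before adjustment over all genes. Sucla2 was chosen by its gap between high and low, and the same high-diet rats enter this interval. That choice favours an interval away from 0, so nothing is read from it.

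Some marker lists had other means on the high diet, alongside Sucla2. All 7 tested endothelial and mural markers had lower means on high than on control, and their mean per rat spanned 8.42 to 8.56 on low, 8.44 to 8.57 on control and 8.37 to 8.48 on high. All 5 tested markers of neighbouring cortex and thalamus were higher on high, with scores of 9.76 to 9.96 on low, 9.73 to 10.05 on control and 9.75 to 10.20 on high. Hippocampal field markers were lower in 5 of 6, at 11.05 to 11.22 on low, 10.85 to 11.23 on control and 10.72 to 11.17 on high. Neuronal markers were higher in 3 of 7, at 12.85 to 12.92 in both groups, astrocyte markers in 3 of 6, oligodendrocyte markers in 4 of 5 and microglial markers in 2 of 4. Of 5 choroid plexus markers 1 was tested, Ttr, which spanned 7.61 to 10.06 on low, 6.69 to 12.91 on control and 6.79 to 11.05 on high. limma called 0 of these markers (0% of all tested genes). For high minus control, 4 of the 5 cortex and thalamus markers and 4 of the 7 endothelial and mural markers had an unadjusted limma p under 0.05. Of the 6 astrocyte markers 1 did, and 0 in each other list, against 4.63% of all tested genes. The lists were chosen with earlier results of these data known. Their part in the values of the TCA genes was not tested. In tissue of mixed cells, fewer cells of a type and less RNA per cell cannot be told apart. Of 7 markers of hippocampal fields, 6 had a probe set, Prox1, Wfs1, Fibcd1, Zbtb20, Mpped1 and Cabp7, and all 6 passed the filter.

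Rats on the same diet differed little in most of these genes. The SD within diets was 0.044 log2 for Sucla2, 0.043 for both Idh3a and Cs and 0.040 for Mdh2. These 4 lay among the least variable genes, with 3.84% to 6.80% of tested genes below them, and the median over all genes was 0.076. Ogdh (0.062) and Suclg2 (0.059) were nearer the middle, and Suclg1, at 0.087, varied more than 64.1% of tested genes.

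No relation between Sucla2 and another member passed a test within diets. After diet means were removed, its Pearson r over 26 rats was -0.19 with Suclg1, +0.023 with Suclg2, -0.23 with Ogdh, +0.27 with Idh3a, +0.12 with Cs and -0.36 with Mdh2. Of these 6 relations 0 passed a 2-sided permutation test within diets (smallest permutation p = 0.089, for Mdh2; adjusted p = 0.488), and the Spearman values ran from -0.25 to +0.31 (smallest permutation p = 0.136). Without the 2 rats farthest from the median the values ran from -0.32 to +0.25, and over 14 cage means from -0.345 to +0.20 (smallest permutation p of r = 0.296). Across all 8484 other tested genes the median r with Sucla2 was -0.054, and Idh3a stood above 90.4% of them and Mdh2 above 9.85%. Within single diets the sign of r with Sucla2 was the same throughout for Mdh2 alone. For Cs r was +0.48 on low, +0.39 on control and -0.53 on high, and for Idh3a +0.71, +0.47 and -0.070. The values of single diets were not tested.

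The 5 genes most like Sucla2 by this r, over 26 rats, were Ugcg (0.74), Ndufv2 (0.66), Podxl2 (0.65), C1d (0.64) and Cbx3 (0.64). Ugcg makes glucosylceramide, Ndufv2 is a subunit of respiratory complex I and Cbx3 is a heterochromatin protein. These were picked as the highest of 8484 values, all read on the same arrays, and get no test. Between high and control they differed by +0.031 (SE 0.031), +0.0013 (SE 0.028), +0.031 (SE 0.045), +0.035 (SE 0.032) and +0.017 (SE 0.024) in that order.

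Suclg1 and Ogdh varied together across rats. They had r = 0.64 and rho = 0.64 over 26 rats (permutation p = 6.7e-04, adjusted p = 0.0141 over 21 pairs), and r = 0.60 once the 2 rats farthest from the median were left out. Within the diets r was 0.80 on low, 0.52 on control and 0.63 on high. Over the 14 cage means r was 0.77 (permutation p = 0.00292, adjusted p = 0.0613). Suclg1 with Suclg2 (r = 0.47, rho = 0.48, permutation p = 0.0193) and Suclg2 with Ogdh (r = 0.46, rho = 0.48, permutation p = 0.0267) each had an adjusted p of 0.187 and did not pass. Low-diet rat 7 was the highest of its group in Suclg1, Suclg2 and Ogdh alike, and without it the r of these last 2 pairs was 0.34 (permutation p = 0.101) and 0.38 (permutation p = 0.0796). Of the 21 pairs, 1 passed at an adjusted p under 0.05. That all pairs were examined was decided after the values had been seen.

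Astrocyte markers went with Ogdh and Suclg1. An astrocyte score, the mean of Gfap, Aqp4, Aldh1l1, Slc1a3, Gja1 and S100b in each rat, was set against every member within diets, as were 7 further marker lists, giving 56 relations chosen after the values had been seen. With Ogdh the score had r = 0.63 and rho = 0.68 (permutation p = 0.00122, adjusted p = 0.0309), and r = 0.81 once the 2 most distant rats were left out. With Suclg1 it had r = 0.58 and rho = 0.55 (permutation p = 0.00401, adjusted p = 0.0374), and r = 0.45 without those 2. With Suclg2 it had r = 0.51 and rho = 0.61 (permutation p = 0.0126), and its adjusted p of 0.101 did not pass. Over cage means the 3 values of r were 0.78, 0.83 and 0.71 in the same order, with adjusted p values of 0.0333, 0.0333 and 0.0951 from permutation tests. Of all tested genes, 97.8% had a lower r with the score than Ogdh, 96.2% than Suclg1 and 92.4% than Suclg2. The score itself spanned 11.22 to 11.43 on low, 11.27 to 11.37 on control and 11.28 to 11.38 on high.

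Idh3a and Suclg1 each went with another marker score over rats, but neither relation passed over cage means after adjustment. The neuronal score had r = 0.55 and rho = 0.54 with Idh3a (permutation p = 0.0028, adjusted p = 0.0314), and over cage means r = 0.70 (permutation p = 0.0351, adjusted p = 0.171). The score of hippocampal field markers had r = 0.55 and rho = 0.55 with Suclg1 (permutation p = 0.00202, adjusted p = 0.0309), and over cage means r = 0.62 (adjusted permutation p = 0.171). Without the 2 rats farthest from the median these 2 values of r were 0.48 and 0.49. Of all tested genes, 95.1% had a lower r with the neuronal score than Idh3a. For the hippocampal field score, 93.3% had a lower r than Suclg1. Whether the makeup of the dissected tissue or the level per cell varied between rats was not tested.

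**Figure D3:**
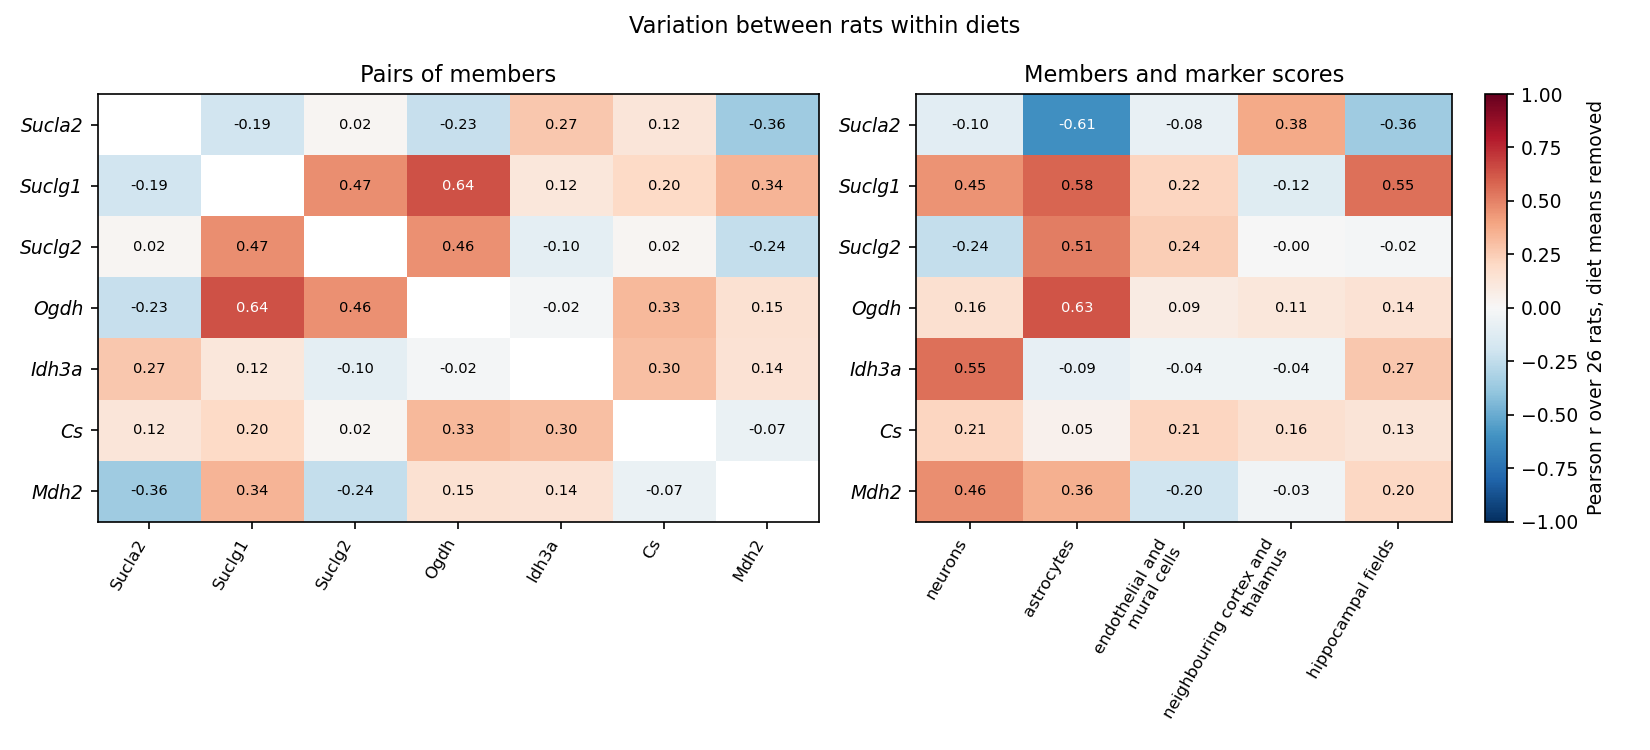
Pearson r over 26 rats after removal of diet means, for pairs of the 7 genes (left) and for the genes against 5 marker scores (right), with red for positive and blue for negative values. Suclg1, Suclg2 and Ogdh form the block of red pairs (0.46 to 0.64) and share red cells in the astrocyte column (0.51 to 0.63), where Sucla2 is blue (-0.61).

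Sucla2 had negative values of r with glial markers. Its r with the astrocyte score was -0.61 (permutation p = 0.00221, adjusted p = 0.0309 over 56 relations), and -0.56 once the 2 most distant rats were left out, but rho was -0.38 (permutation p = 0.0653) and r over cage means was -0.37 (permutation p = 0.297). The relation rested in part on 5 rats that lay apart in the oligodendrocyte score, the mean of Mbp, Mobp, Mog, Mag and Cnp, which are genes of myelin. Those 5 rats, 2 on low, 1 on control and 2 on high, had oligodendrocyte scores of 11.87 to 11.92, between 0.14 and 0.17 below their own diet means. The nearest other rat was 0.055 below its diet mean. Without the 5 rats the r of Sucla2 with the astrocyte score was -0.33 (permutation p = 0.105).

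All 5 of these rats lay above their own diet mean in Sucla2, by 0.025 to 0.11 log2, and they came from 5 different cages. Over all 26 rats this negative relation had the smallest permutation p of the 56 (adjusted p = 0.00392), while over cage means its adjusted permutation p was 0.171. Since the 5 stood apart, the relation is described here within the other rats, which span a narrower range. Among the other 21 rats the r of Sucla2 with the oligodendrocyte score was -0.43 (permutation p = 0.0621) and rho was -0.45 (permutation p = 0.0536), and r was -0.55 once the 2 most distant of them were left out. Within these 21 the relation did not pass. Without the same 5 rats Suclg1 and Ogdh had r = 0.61 (permutation p = 0.00608), and the astrocyte score had r = 0.61 with Suclg1, 0.61 with Suclg2 and 0.63 with Ogdh (permutation p values of 0.00591 to 0.00942). Suclg1 with Suclg2 (r = 0.45, permutation p = 0.0561) and Suclg2 with Ogdh (r = 0.40, permutation p = 0.0933) were not past 0.05 there.

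**Figure D4:**
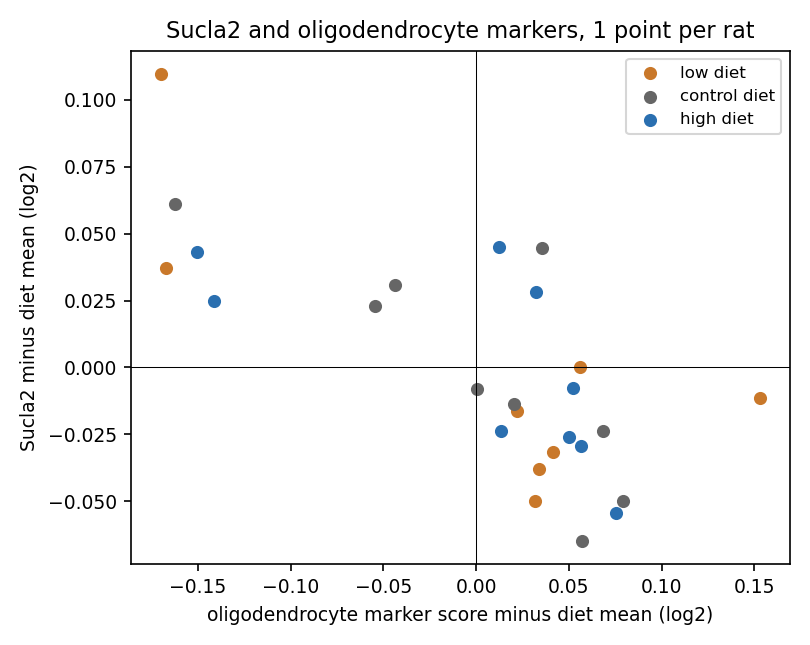
Sucla2 (y axis, log2) against the oligodendrocyte marker score (x axis, log2), each minus its diet mean, with 1 point per rat coloured by diet. The 5 rats at the left, from all 3 diets, are 0.14 to 0.17 below their diet means in the score and 0.025 to 0.11 above them in Sucla2.

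Sucla2 also had r = 0.38 and rho = 0.49 with the score of cortex and thalamus markers (permutation p = 0.049 for r, adjusted p = 0.255), the score that was higher on the high diet. Over cage means r was 0.65 (permutation p = 0.00849), and its adjusted p of 0.0951 did not pass. Over rats r was not past 0.05 in 20 of 31 other settings, with 0.34 without low-diet rat 2 (permutation p = 0.118) and 0.31 without control rat 13 (permutation p = 0.129). Slc17a6, the glutamate transporter gene in that list, differed by +0.35 (SE 0.11) between high and control.

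The genes around the TCA cycle had small differences by diet, and limma called 0 of those tested in either contrast with control (0% of all tested genes). Beside the counts of direction below, 50.6% of all tested genes had a higher mean on high than on control. On low against control 44.1% had a higher mean. The other TCA genes include the remaining isocitrate dehydrogenase subunits and succinate dehydrogenase, and 9 of the 10 listed had a probe set over the filter. Of these, 5 had higher and 4 lower means on high than on control, with a median of +0.015. Sdha, the flavoprotein of succinate dehydrogenase that takes up the succinate made by the ligase, differed by +0.048 (SE 0.030), and Idh3b by +0.035 (SE 0.023). Between low and control 2 were higher and 7 lower, with a median of -0.0080, and Dld (the dihydrolipoamide dehydrogenase shared by the 2-oxo acid complexes) was at -0.018 (SE 0.035) and Sdha at -0.015 (SE 0.031).

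Of 13 genes of pyruvate entry, 10 were higher on high than on control, with a median of +0.016. Pdk3 and Pdk2, kinases that inactivate pyruvate dehydrogenase, differed by +0.088 (SE 0.037) and +0.037 (SE 0.027). On low against control 5 were higher and 8 lower. There Pdpr, a subunit of pyruvate dehydrogenase phosphatase, was at +0.044 (SE 0.030) and Mpc1, of the mitochondrial pyruvate carrier, at -0.041 (SE 0.038).

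Of 22 genes of anaplerosis, succinyl-CoA supply and the malate-aspartate shuttle 17 were tested. Among them 14 were higher on high than on control (median +0.021), including the mitochondrial glutamate carrier Slc25a22 at +0.060 (SE 0.026) and the cytosolic malate dehydrogenase Mdh1 at +0.034 (SE 0.022). On low against control 12 of the 17 were lower (median -0.016). The dicarboxylate carrier Slc25a10, which carries malate and succinate, was at -0.098 (SE 0.038) and the citrate carrier Slc25a1 at -0.060 (SE 0.031). In marked minus unmarked rats, within diets, Slc25a10 was at -0.081 (SE 0.027), Slc25a22 at -0.051 (SE 0.020) and Slc25a1 at -0.045 (SE 0.024). There 15 of the 17 were lower, while 33.8% of all tested genes were higher, and 4 had an unadjusted limma p under 0.05 (5.32% of all). At an unadjusted p under 0.05 stood Pdk3 and Slc25a22 on high and Slc25a10 on low, from 54 genes in the 5 lists. These 2 genes and 1 gene compare with 4.63% of all tested genes for high minus control and 2.27% for low minus control. By this count the lists lay near the background. The counts of higher and lower means were not tested.

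Genes of mitochondrial DNA upkeep were listed because SUCLA2 loss is tied to that DNA. Of 12, 8 were tested, and 3 were higher and 5 lower on high than on control (median -0.0100). Tk2, mitochondrial thymidine kinase, was at -0.062 (SE 0.037) and Nme3 at +0.043 (SE 0.035). On low 5 were higher and 3 lower, with Rrm2b, a ribonucleotide reductase subunit, at -0.053 (SE 0.047) and Dguok, deoxyguanosine kinase, at -0.058 (SE 0.052). Of 8 regulators of mitochondrial genes 7 were tested, and 4 were higher on high than on control (median +0.0044). The coactivator Ppargc1a was at +0.020 (SE 0.034) on high. Nrf1 was at -0.023 (SE 0.030) on high and +0.026 (SE 0.031) on low, and the receptor Esrrg at -0.078 (SE 0.055) on low, each against control.

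**Figure D5:**
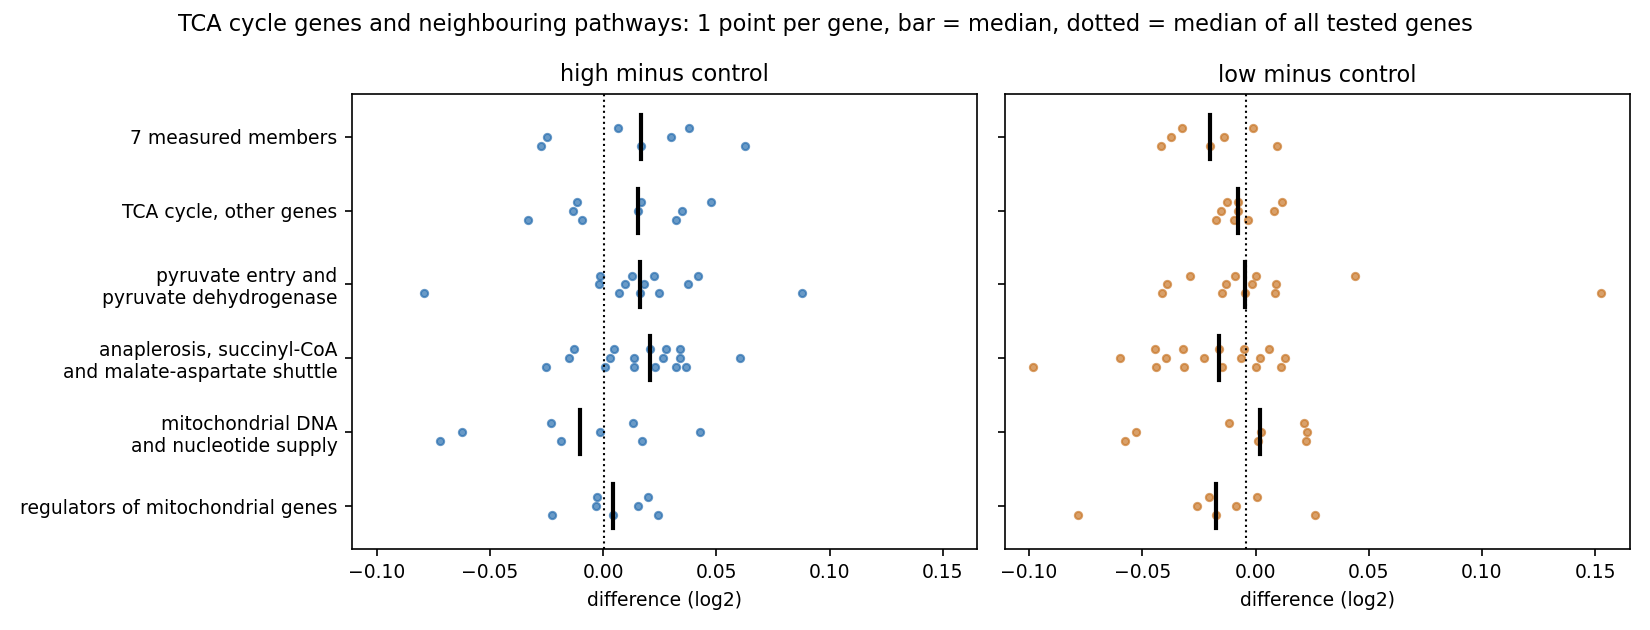
Differences in log2 (x axes) for high minus control (left) and low minus control (right), with 1 point per tested gene by pathway list (y axis), a bar at each list's median and a dotted line at the median of all tested genes. The bar of the 7 measured genes is at +0.017 on the left and -0.020 on the right, against +0.00043 and -0.0043 for all genes.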

How the data were processed

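Gene expression was measured in hippocampus with 1 array for each of 26 rats. The deposited values are log2 intensities of 29214 probe sets, on the scale that the series design gives, and were made by the authors. Partek 6.6 and GCRMA are named per the submitters' processing notes, without their roles. A genome build is not given in the sources used here. Genes were named from the platform annotation: 15310 probe sets had 1 symbol, 323 several and 13581 none. Each gene was read from its brightest single-symbol probe set, and genes with a mean under 6.944, the median of all probe sets, were left out. No further normalization was applied, since array medians lay between 6.92 and 6.96. limma 3.58.1 in R 4.3.3 fitted diet as a factor over all 26 rats (lmFit and eBayes, 2-sided, Benjamini-Hochberg over 8485 genes), with calls at an adjusted p under 0.17, the stricter false discovery rate in the series design. The procedure was tested on simulated data. The simulation took rats as independent and used shifts larger than the members' differences. It therefore does not cover cage mates or differences this small. Cage mates were taken as independent in the main fit, so p-values measure the spread between these rats.

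Correlations used residuals from diet means, with 100000 permutations within diets, in Python 3.11.15 with scipy 1.17.1. Of 8 planned relations of Sucla2, 6 could be computed, since Dlst and Fh had no single-symbol probe set. The members, gene lists and tests were chosen with earlier results of these data known. Named genes were all members, the 2 genes of each pathway list with the smallest p in each contrast with control, the 5 genes most like Sucla2 and the markers. Alternatives were other filters, probe sets, normalizations, cage as a random block or as pairs, array weights, the tail mark, fits of 2 diets, the dropping of values more than 2 SD away from a diet's mean, an unmoderated test and leaving out each rat. Promoters came from RefSeq, build GRCr8.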

Additional observations from a re-analysis of the deposited data

Results flagged for a closer look

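The highest Idh3a value on the control diet, 11.70 log2 in rat 9, lay far from the others of its group: its gap to the next rat was 0.563 of the group's range, past Dixon's 95% critical value for 9 samples. It was the 1 case among 21 groups (7 genes on 3 diets), and chance alone flags about 1 in 20 such groups.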

How the results depend on the processing

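Over 37 alternative settings, Sucla2 stayed higher on high than on control, by 0.055 to 0.076 log2, and its lowest adjusted p was 0.380. Among 1036 recomputed differences of the 7 genes, 2 passed the threshold and 32 changed sign. Both passes were Sucla2 in high minus low, the contrast that chose it, so nothing is read from them. The difference was +0.11 with values over 2 SD removed, which dropped Sucla2 of low-diet rat 2, and +0.11 without that rat. Removing values over 2 SD shrinks the spread by construction, and with it limma called 30 genes in high minus low and 15 in high minus control, against 0 in both with all values kept. Quantile normalization, median centring and the tail mark as a covariate each gave 1 call in high minus low (Polr1b). Leaving out single rats gave 0 to 3 calls in high minus low, 0 to 1 in high minus control, 0 to 0 in low minus control and 0 to 1 in marked minus unmarked. The high minus low calls were Slc17a6 and Sucla2 without low rat 2, Polr1b without low rat 3 or high rat 22, Polr1b and Slc17a6 without control rat 17, and Lxn, Nmbr and Slc17a6 without high rat 25. The other calls were Fabp3 (without control rat 17) and Nmbr (without high rat 25) in high minus control, and Txndc15 in marked minus unmarked (without high rat 21).

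The cause of the sign changes was not tested. Suclg1 in high minus low was 0.016 with array weights. In low minus control it was 0.00091 after quantile normalization and 0.0045 after centring. Sucla2 in marked minus unmarked was 0.0088 after quantile normalization, 0.0028 after centring, 0.0049 with array weights, 0.0092 with values over 2 SD removed and 0.00066 with cage mates as pairs. In that contrast Ogdh was 0.0012 after quantile normalization and Suclg1 was -0.00017 with array weights. The r of Sucla2 with Ogdh was 0.050 when diet means were kept. Leaving out single rats gave -0.025 to 0.014 for Suclg1 and -0.0019 to 0.018 for Mdh2 in low minus control, and -0.0028 to 0.019 for Idh3a in high minus control. In marked minus unmarked it gave -0.0073 to 0.0092 for Sucla2 and -0.0017 to 0.017 for Suclg2. The r of Sucla2 with Suclg2 ran from -0.13 to 0.16.

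Diets could not be paired, since rat numbers and cages are not shared between them. Tail-marked and unmarked mates of 12 cages could be, and limma with cage mates as pairs called 0 genes, with 499 at an unadjusted p under 0.05. The pairing and the settings for the relations with marker scores were added after seeing the data. The number of rats limits precision: standard errors of the members' differences from control were 0.022 to 0.041 log2.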
